A study of Danio rerio with 2 samples.

Results

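Voltage-gated ion channel genes were compared between 2 RNA libraries made from whole zebrafish embryos at 32 hours post fertilisation. One library came from wild-type siblings and the other from supt16h-/- embryos, homozygous for a mutation in the gene of a subunit of the histone chaperone FACT; both were raised at 28 °C. The line came from a forward genetic screen, and the mutant allele, its background strain, the number of embryos in each library and whether the siblings included heterozygous carriers are not stated in the labels. A member is any locus of the expression table with a lower-case symbol that begins with scn and a digit, kcn, cacn, hcn or clcn. Another 95 loci match only when letter case is ignored and are not members, so counts by family below do not cover whole families. The rule found 123 of 34728 loci, which carry 120 distinct symbols. Of these, 57 had a mean of at least 1 FPKM over the libraries (fragment counts scaled to transcript length and library depth) and are called measured, 46.3% against 59.4% of all loci. With 1 library per genotype there were no replicates, so no test between genotypes was possible and every difference describes these libraries.

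Voltage-gated channels open a pore in the cell membrane when the voltage across it changes. Sodium channels start the action potential, potassium channels end it and set the resting voltage, and calcium channels turn the voltage change into calcium entry, which releases transmitter in neurons and drives contraction in muscle. Their pore subunits carry a charged segment that senses voltage, and auxiliary subunits without a pore tune their gating and delivery. The symbol rule is wider than that definition. Of the members, 52 belong to families with a voltage sensor in the pore subunit (sodium, Kv, calcium and HCN), and 37 are named as auxiliary subunits. Some of the 37 are gamma genes whose proteins serve glutamate receptors rather than calcium channels, as described below. A further 28 belong to families without such a sensor, namely the inward rectifiers, the tandem-pore leak channels and the ClC chloride channels and exchangers. The last 6 are subunits of potassium channels opened by calcium or sodium, counted apart whether or not their pore also senses voltage.

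The channel genes as a whole stood close to each other in the libraries. Their median log2 difference, mutant minus sibling after adding 1 FPKM to each value, was 0.06, beside 0.0012 over all measured loci. Of the 57 measured members, 35 lay above 0 and 22 below, and after scaling to equal total FPKM these became 30 and 27. On this scale, which draws low genes towards 0, 1 member was at least 2-fold higher in the mutant library, 1.75% against 6.75% of measured loci, and 4 were at least 2-fold lower, 7.02% against 8.36%. In raw FPKM, kcnk1a, kcnj11 and scn4ab also stood past 2-fold higher and kcnip3 past 2-fold lower. The shares of all measured loci past 2-fold in raw FPKM were not computed, so these genes stand without a background. Among all measured loci with a mean below 5 FPKM, where 40 of the members lie, 7.51% were higher and 5.70% lower. Raw FPKM differed by less than 1.5-fold at 39 members, 68.4% of those measured, and at 57.5% of all measured loci. The authors' deposited table calls 0 of the 53 members that it tested, against 0.469% of all tested loci. There, only 1 member had an unadjusted p below 0.05 (1.89% against 6.43% of tested loci), and the smallest member q was 0.564. Both belong to clcnk.

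**Figure D1:**
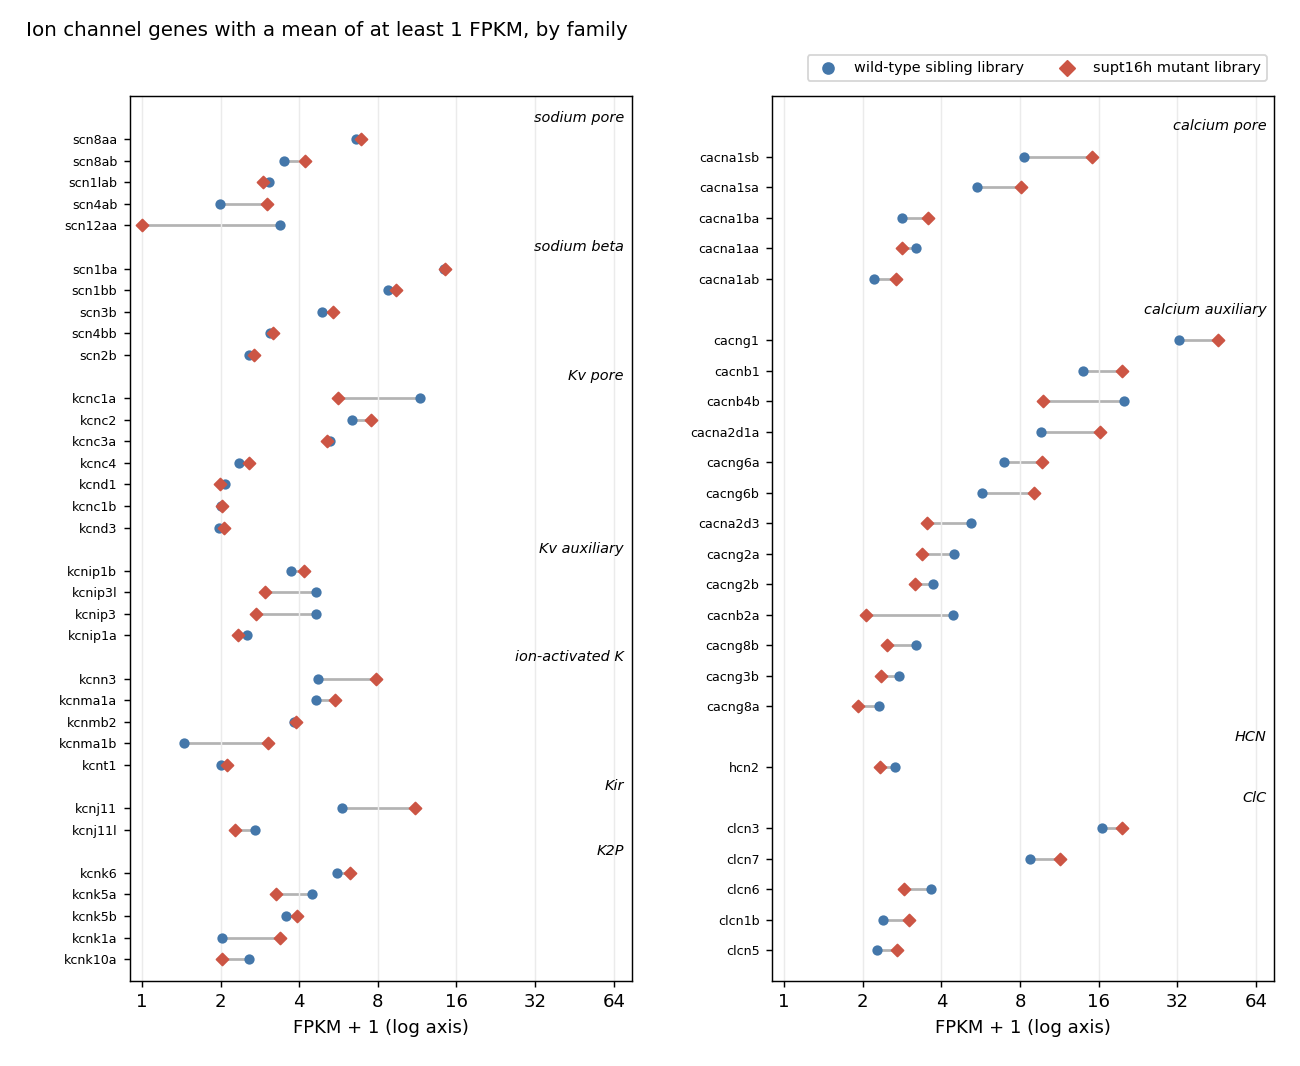
Levels of the 57 measured channel genes in the wild-type sibling library (circles) and the supt16h mutant library (diamonds), as FPKM + 1 on a log axis, by family and in order of mean level. Each symbol is 1 library and there are no error bars. The calcium channel genes cacna1sb, cacna1sa, cacng1, cacnb1 and cacna2d1a lie to the right in the mutant library, while kcnc1a, cacnb4b and cacnb2a lie to the left.

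Levels were low for most members. In order of mean level the first was cacng1 at 38.2 FPKM, followed by clcn3 (17.02), cacnb1 (15.8), cacnb4b (13.8), scn1ba (13.4), cacna2d1a (11.9) and cacna1sb (10.7), and these 7 were the members at 10 FPKM or more. FPKM is scaled to transcript length, so these levels may be set beside each other. Of the 17 members with a mean of at least 5 FPKM, 15 lay above 0, with a median difference of 0.49, against 6539 of 13116 loci at that level. The 2 below 0 were kcnc1a and cacnb4b. Skeletal muscle channels, described next, make up 7 of the 17, so the count is not separate from that group. The limit uses the mean of both libraries. In sibling RNA kcnj11 (4.85 FPKM), cacng6b (4.69 FPKM), cacna1sa (4.45 FPKM) and kcnn3 (3.71 FPKM) were below 5 FPKM. They passed through their higher mutant values, as kcnc1a (4.62 FPKM in mutant RNA) passed through its sibling value. The 40 members between 1 and 5 FPKM divided evenly, 20 on each side.

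The clearest group was the skeletal muscle channels, a list of 13 symbols of which 11 matched a member and 9 were measured. All 9 were higher in the mutant library, by 1.42-fold to 2.04-fold, with a median log2 difference of 0.57. The highest ratio was that of scn4ab (0.985 FPKM in sibling RNA), which passed the limit of 1 FPKM through its mutant value. The summed level of the 9 was 77.9 FPKM in sibling RNA against 121 FPKM in mutant RNA. None reached a log2 difference of 1, against 6.75% of all measured loci. None was called in the authors' deposited table, against 0.469% of all tested loci.

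Within that group, 5 genes encode the subunits of the dihydropyridine receptor, the L-type calcium channel of skeletal muscle that senses voltage in the transverse tubule and opens the calcium store. Its pore subunit has the paralogs cacna1sa and cacna1sb. The gene cacna1sa (chromosome 22, 892640 to 948674, Zv9 build) stood at 4.45 FPKM in sibling RNA against 7.08 FPKM in mutant RNA. The gene cacna1sb (chromosome 8, 26620553 to 26661346) stood at 7.31 and 14.1 FPKM, a ratio of 1.93, and the log2 change in the authors' deposited table is 0.95 with an implied standard error of 0.61. The higher-expressed paralog thus also had the larger difference, 0.86 against 0.57 as log2 differences.

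The auxiliary subunits of the receptor had like ratios. Its beta subunit gene cacnb1 stood at 13.0 and 18.6 FPKM, its alpha2delta subunit gene cacna2d1a at 8.58 and 15.2 FPKM, and its gamma subunit gene cacng1 at 31.5 and 44.8 FPKM. Over the 5 genes the ratio ran from 1.42 (cacng1) to 1.93 (cacna1sb), and the sum went from 64.9 FPKM in the sibling library to 99.8 FPKM in the mutant library. The cacnb1 row shares its coordinates with a row for 5S ribosomal RNA, so the division of reads there is uncertain.

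The remaining skeletal muscle members were also higher in the mutant library. The gamma subunit genes cacng6a (5.92 and 8.72 FPKM) and cacng6b (4.69 and 8.01 FPKM) belong to the same subunit family as cacng1. The muscle sodium channel pore gene scn4ab stood at 0.985 and 2.01 FPKM, the highest ratio of the list at 2.04. Its paralog scn4aa was listed at 0 for siblings and had 0.0460 FPKM in mutant RNA. The muscle chloride channel gene clcn1b, whose channel steadies the resting voltage of the fibre, stood at 1.40 and 2.001 FPKM, and clcn1a, below the limit for measured genes, at 0.442 and 0.760 FPKM. The cacng6a and clcn1b rows share their coordinates with other rows, so their values are less certain.

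**Figure D2:**
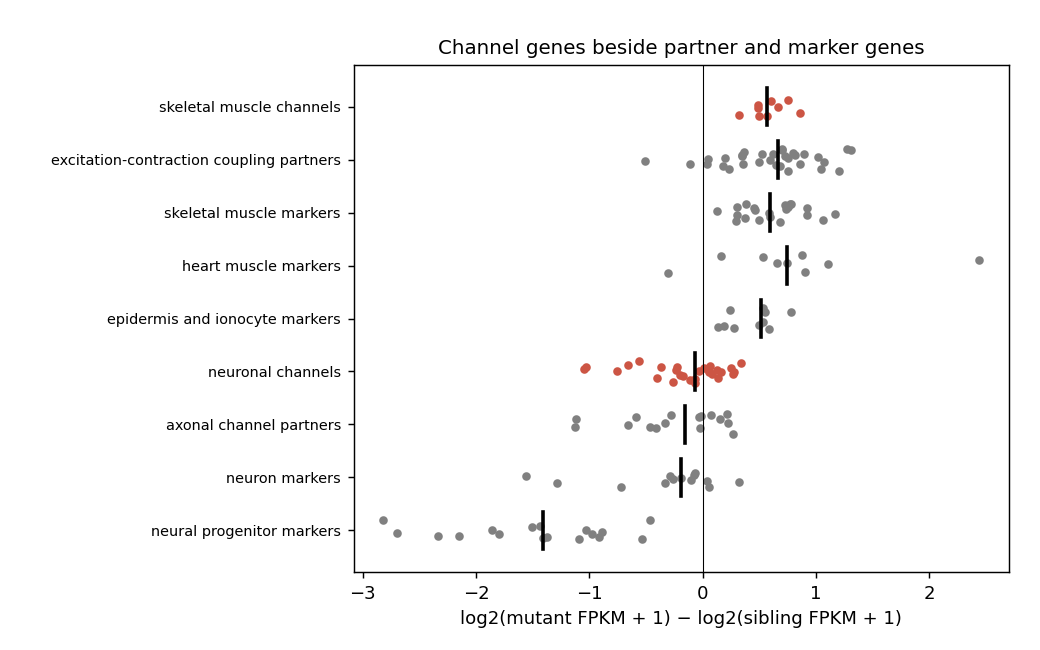
Log2 difference between the mutant and sibling libraries (log2 of FPKM + 1) for each measured gene of 9 lists, with channel genes in red and other genes in grey. Black bars are medians. The 9 skeletal muscle channels lie between 0.32 and 0.86, and the 28 neuronal channels lie between -1.05 and 0.34.

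Genes that work with these channels in muscle stood in the same direction. A list of excitation-contraction coupling partners, none of them members, held 32 measured loci with a median of 0.67, and 30 lay above 0, or 28 after scaling to equal total FPKM. At least 2-fold higher were 6 of them, 18.75% against 6.75% of all measured loci. None was that much lower, against 8.36%, and none was called, against 0.469% of all tested loci. The 4 with the largest differences were fkbp1b, which binds the calcium release channel (17.6 and 45.1 FPKM), the acetylcholine receptor subunits chrng (5.43 and 14.5 FPKM) and chrne (26.5 and 62.3 FPKM), and the calcium pump gene atp2a1l (15.7 and 34.0 FPKM). The calcium release channel gene ryr1b stood at 5.53 and 12.3 FPKM, and stac3, which couples it to the dihydropyridine receptor, at 17.2 and 32.9 FPKM.

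Markers of skeletal muscle moved with the channel genes. All 21 markers of the skeletal muscle list were higher in the mutant library, with a median of 0.59 and ratios from 1.09 to 2.25, and their summed level was 32212 and 48413 FPKM. The median ratio was 1.59 over the 9 channel genes and 1.51 over the 21 markers. Markers of epidermis and ionocytes were also higher, 10 of 10 measured, with a median of 0.52. In whole embryos a larger share of muscle cells cannot be told apart from more RNA of these genes per muscle cell, and the part of cell make-up in the channel values was not tested.

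Neuronal channels formed the largest list, of which 28 symbols matched no member. It held 55 matched members, 28 of them measured. Their median log2 difference was -0.07, with 12 above 0 and 16 below, and 10 and 18 after scaling to equal total FPKM. Raw ratios ran from 0.434 to 1.41, and 23 of the 28 stayed within 1.5-fold. The 5 outside that range were all lower in the mutant library. The list summed to 94.2 FPKM in sibling RNA against 73.3 FPKM in mutant RNA, and without kcnc1a and cacnb4b to 64.7 and 60.0 FPKM.

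Those genes, kcnc1a and cacnb4b, had the highest mean levels of the neuronal members. They were also the neuronal ones at least 2-fold lower after adding 1 FPKM. They are 7.14% of the measured neuronal channels, against 8.36% of all measured loci. In mutant RNA alone, kcnc2 (6.55 FPKM) and scn8aa (5.91 FPKM) stood above kcnc1a (4.62 FPKM). In raw FPKM, kcnip3 passed 2-fold lower as well. The gene kcnc1a (chromosome 7, 34362428 to 34423223) encodes a Shaw-type potassium channel pore, whose fast gating lets neurons fire at high rates. It stood at 10.6 FPKM in sibling RNA against 4.62 FPKM in mutant RNA, and its log2 change in the authors' deposited table is -1.20 with an implied standard error of 1.09. The beta subunit gene cacnb4b (chromosome 6, 13997289 to 14057580), which brings neuronal calcium channels to the membrane, stood at 18.9 and 8.75 FPKM. Its log2 change in the authors' deposited table is -1.11 with an implied standard error of 0.63.

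Paralogs and relatives of kcnc1a did not show that difference in level. The paralog kcnc1b stood at 1.01 and 1.03 FPKM, kcnc2 at 5.36 and 6.55 FPKM, kcnc3a at 4.23 and 4.102 FPKM, and kcnc4 at 1.36 and 1.57 FPKM. The kcnc2 row shares its coordinates with frs2a and yeats4, and the kcnc1b row with sergef. The A-type channel genes kcnd1 (1.09 and 0.987 FPKM) and kcnd3 (0.979 and 1.06 FPKM) were near the limit for measured genes, and the kcnd3 row shares its coordinates with another row. Over the 7 measured Kv pore genes the median was 0.01, and -0.03 after scaling to equal total FPKM. The other 20 Kv pore loci were below the limit, and the highest mean among them was 0.917 FPKM.

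Of the 4 measured auxiliary subunit genes of Kv channels, all named kcnip, 3 were lower in the mutant library. The gene kcnip3, which encodes a calcium-binding partner of A-type channels, stood at 3.63 and 1.74 FPKM, and its relative kcnip3l at 3.65 and 1.95 FPKM. The gene kcnip1a stood at 1.51 and 1.33 FPKM, and kcnip1b, the 1 of the 4 that was higher, at 2.74 and 3.18 FPKM. Both kcnip3 rows share coordinates with another row. Below the limit for measured genes, kcnab1 (0.0992 and 0.275 FPKM) and kcne4 (0 and 0.481 FPKM) were higher in the mutant library, and kcnip2 was at 0 in both.

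With scn4ab and scn12aa, the measured ones that differed most, set aside, the measured sodium channel genes were nearly level between the libraries. The neuronal pore gene scn8aa, which in mammals serves the axon initial segment and nodes, stood at 5.61 and 5.91 FPKM, its paralog scn8ab at 2.51 and 3.22 FPKM, and scn1lab at 2.06 and 1.92 FPKM. The beta subunit genes, whose single-pass proteins tune the pore and act in adhesion, stood at 13.3 and 13.4 FPKM (scn1ba), 7.72 and 8.40 FPKM (scn1bb), 3.89 and 4.39 FPKM (scn3b), 2.096 and 2.19 FPKM (scn4bb) and 1.57 and 1.68 FPKM (scn2b). Over these genes, the ratios of the 8 measured sodium channel genes ran only from 0.931 to 1.29. Directions within that range are not firm, since scn8aa, scn1ba and scn4bb changed sign when values were scaled to equal total FPKM. The scn1bb row shares its coordinates with 19 other rows, and its implied standard error in the authors' deposited table is 21.996, so its value is uncertain. The beta subunit gene scn4ba, below the limit for measured genes, was not level, at 0.0940 and 0.918 FPKM.

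The lowest log2 difference of all measured members, -1.75, belongs to scn12aa, and it rests on little. The locus spans only 267 bases of chromosome 2 and was listed at 0 in the mutant library, beside 2.37 FPKM for siblings. It passed the limit for measured genes through its sibling value. The other loci named for neuronal sodium pores, 3 rows called scn1a, were below the limit for measured genes.

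**Figure D3:**
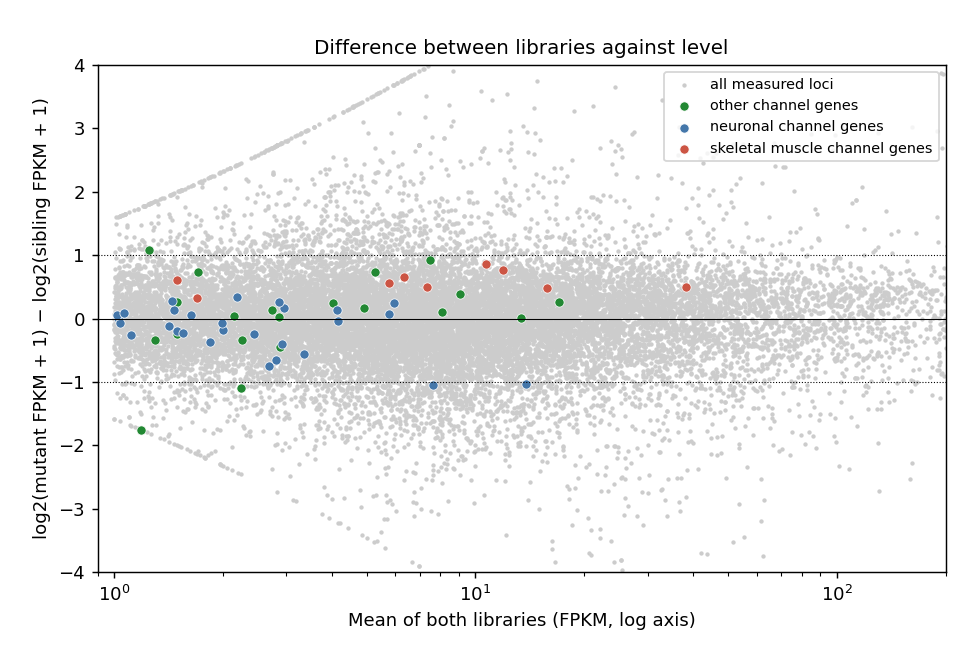
Log2 difference between the mutant and sibling libraries (FPKM + 1) against mean FPKM (log axis) for measured loci in grey and the 57 measured channel genes in colour, with dotted lines at 2-fold. Of the 20638 measured loci, 756 above 200 FPKM or beyond 4 on the log2 scale are outside the plotted range. Skeletal muscle channels lie above 0 at every level, and the neuronal channels kcnc1a and cacnb4b lie just below the lower line.

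Genes named as auxiliary calcium channel subunits divided between the skeletal muscle list and the rest, and pore genes did not. All 18 measured genes named for calcium channels together had a median of 0.05, with 9 on each side of 0. That median was -0.01 after scaling to equal total FPKM. Among the 13 genes named as auxiliary subunits, the 5 of the skeletal muscle list lay above 0 and the other 8 lay below 0. The median was 0.49 over the skeletal muscle genes and -0.38 over the other 8. Of those 8, 5 are gamma genes whose proteins serve AMPA-type glutamate receptors, described below. Among them, cacng8a passed the limit of 1 FPKM through its sibling value. Of the 5 pore genes, both muscle genes and 2 of the other 3 lay above 0, and the median of those 3 was 0.27. The lists were drawn up by known site of expression, with earlier results of these libraries known, so the division is a description.

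The neuronal calcium pore genes showed no common direction. The genes cacna1aa and cacna1ab encode P/Q-type pores, which trigger transmitter release, and stood at 2.19 and 1.82 FPKM and at 1.22 and 1.68 FPKM, the cacna1ab row sharing its coordinates with 5S ribosomal RNA. The N-type pore gene cacna1ba stood at 1.82 and 2.57 FPKM. The alpha2delta gene cacna2d3 stood at 4.19 and 2.52 FPKM.

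Among genes of the gamma family whose proteins serve AMPA-type glutamate receptors, rather than calcium channels, the measured ones were all lower in the mutant library. The 5 measured ones were cacng2a (3.45 and 2.37 FPKM), cacng2b (2.73 and 2.16 FPKM), cacng3b (1.74 and 1.35 FPKM), cacng8a (1.31 and 0.922 FPKM) and cacng8b (2.195 and 1.484 FPKM). Their ratios ran from 0.676 to 0.792. Of the 5, cacng8a passed the limit for measured genes through its sibling value. These 5 genes are among the 16 genes of the neuronal channel list that lay below 0.

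The gamma genes lie in paralogous clusters where muscle and neuronal members are neighbours. On chromosome 19 the order is cacng6a (10354620 to 10420784), cacng8a and cacng7a, with gaps of 15.04 and 10.8 kb, and clcn1a lies 69.1 kb before them. On chromosome 16 cacng6b (14580409 to 14617972), cacng8b and cacng7b follow each other with gaps of 15.8 and 9.28 kb. In both clusters the cacng6 gene was higher in the mutant library and the adjacent cacng8 gene was lower, though cacng8a passed the limit through its sibling value. The cacng7 genes were below the limit, at 0.364 and 0.788 FPKM for cacng7a and at 0.133 and 0.0918 FPKM for cacng7b.

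Partners and markers of neurons gave context for the neuronal channels. The list of axonal channel partners holds mainly genes for proteins that anchor or modulate sodium and potassium channels, and also nalcn and rest. It had a median of -0.15 over 16 measured genes, with 5 above 0. The 4 with the largest differences were the adhesion genes cntn2 (8.73 and 3.47 FPKM), nfasca (6.17 and 2.30 FPKM) and nrcam (4.23 and 2.49 FPKM) and the intracellular factor fgf11a (1.59 and 0.641 FPKM). The last, fgf11a, passed the limit for measured genes through its sibling value. Neuron markers had a median of -0.19 over 13 genes, with 3 above 0 (1 after scaling to equal total FPKM). Their median ratio was 0.874. Their summed level was 820 and 549 FPKM, to which tubb5 (280 and 170 FPKM) and elavl3 (205 and 83.4 FPKM) contributed most. The marker syt1b was listed at 0 in the sibling library. Neural progenitor markers had a median of -1.41, and 17 of 17 lay below 0. As with muscle, the part of cell numbers in the neuronal values was not tested.

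Heart channels were largely beyond reach. Of the heart list, 12 symbols matched no member, so their levels are not described. Of 10 matched members 9 were below the limit for measured genes, none above 0.854 FPKM in either library, among them hcn4, cacna1c, kcnh6 and kcnq1. The exception was cacnb2a (chromosome 7, 74455736 to 74500031), which encodes a beta subunit of the cardiac L-type channel and stood at 3.44 FPKM in sibling RNA against 1.06 FPKM in mutant RNA. In the authors' deposited table its log2 change is -1.69 with an implied standard error of 0.91 (unadjusted p = 0.0618, q = 0.837). Its paralog cacnb2b stood at 0.354 and 0.318 FPKM. Among the other members below the limit, hcn4, hcn4l and cacna1c were also lower in the mutant library. Higher there were kcnh2 (0.154 and 0.807 FPKM), kcnq1 (0.427 and 0.854 FPKM), kcnh6, kcne4 and cacna1g. Heart muscle markers had a median of 0.75, with 8 of 9 above 0, and so differed in direction from the single measured gene cacnb2a. The 6 matched members of the retina and hair cell list had means between 0.0690 and 0.876 FPKM, and none was measured. The other 3 symbols of that list matched no member.

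Potassium channels without a voltage sensor differed in direction from gene to gene. The gene kcnj11, which encodes the pore of the ATP-sensitive potassium channel that ties membrane voltage to the energy state of the cell, stood at 4.85 and 10.1 FPKM. Its log2 change in the authors' deposited table is 1.06 with an implied standard error of 0.64. The related kcnj11l stood at 1.70 and 1.28 FPKM, and the inward rectifier gene kcnj13, below the limit, at 0.894 and 0.882 FPKM. Of the tandem-pore leak channels, kcnk6 stood at 4.57 and 5.26 FPKM, kcnk5a at 3.47 and 2.27 FPKM, kcnk5b at 2.56 and 2.92 FPKM, kcnk1a at 1.03 and 2.38 FPKM and kcnk10a at 1.57 and 1.03 FPKM.

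All 5 measured potassium channel genes of the ion-activated families lay above 0, though kcnmb2 changed sign after scaling to equal total FPKM. The small-conductance calcium-activated channel gene kcnn3, whose row shares its coordinates with 5S ribosomal RNA, stood at 3.71 and 6.85 FPKM. The large-conductance channel pore gene kcnma1a stood at 3.62 and 4.46 FPKM and its beta subunit gene kcnmb2 at 2.82 and 2.89 FPKM. The sodium-activated channel gene kcnt1 stood at 1.00 and 1.12 FPKM. The paralog kcnma1b, at 0.445 and 2.05 FPKM, was the 1 member at least 2-fold higher after adding 1 FPKM, with a log2 difference of 1.08. It passed the limit for measured genes through its mutant value. That row shares its coordinates with 20 other rows, and the authors' deposited table implies a standard error of 15.6 for its log2 change, so its value is uncertain.

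Chloride transport and pacemaker genes completed the families. The ClC genes clcn3, clcn5, clcn6 and clcn7 encode proton-coupled exchangers of endosomes and lysosomes. Their levels were 15.4 and 18.6 FPKM (clcn3), 7.73 and 10.4 FPKM (clcn7), 2.64 and 1.88 FPKM (clcn6) and 1.27 and 1.71 FPKM (clcn5). The kidney-type channel gene clcnk stood at 0.314 and 1.57 FPKM, just below the limit with a mean of 0.944 FPKM. In the authors' deposited table the log2 change of clcnk is 2.33 with an implied standard error of 1.01, the only tested member whose implied 95% interval does not hold 0. The 1 measured gene of the hyperpolarisation-activated pacemaker family was hcn2, at 1.66 and 1.32 FPKM, and hcn3 followed at 0.993 and 0.899 FPKM.

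**Figure D4:**
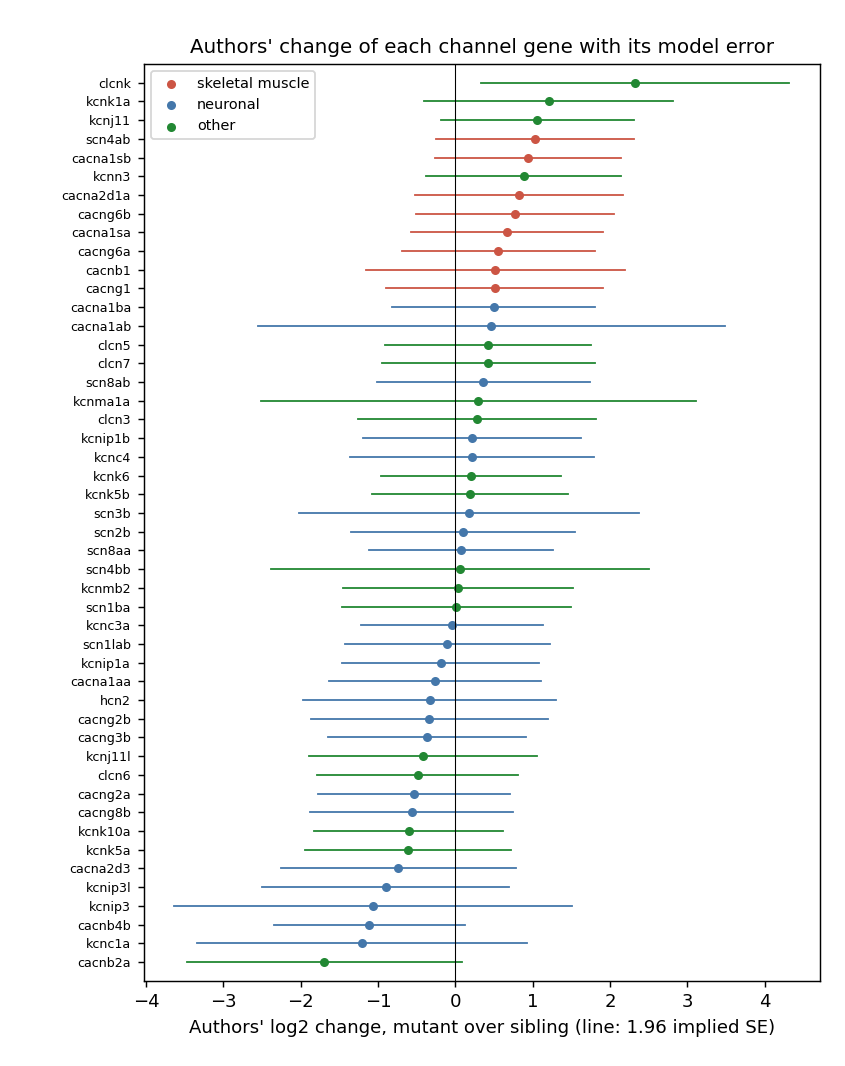
Log2 change of mutant over sibling FPKM in the authors' deposited table for 48 tested channel genes, with lines for the 95% interval implied by its statistic. Another 4 genes with an implied standard error of 2 or more are not drawn, nor is scn12aa, listed at 0 in the mutant library. The lines of all genes drawn cross 0 except that of clcnk.

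The error behind single genes was wide. The standard error implied by the authors' deposited table had a median of 0.71 on the log2 scale over the tested members and had a smallest value of 0.60. For all 9 skeletal muscle channels and all 23 tested neuronal channels, the implied 95% interval held 0. At low values the table moves in steps of whole fragments. Over 4277 loci below 1 FPKM in both libraries the most common sibling-to-mutant ratio was 1.53, which is the ratio of a gene with equal fragments in libraries of unequal depth. That ratio was found, within 0.03 on the log2 scale, at 12 members, among them kcnd2 (0.260 and 0.172 FPKM), hcn4 (0.0553 and 0.0362 FPKM) and kcnh3 (1.096 and 0.713 FPKM). Of the 12, 10 were below the limit for measured genes and 2, kcnk5a and kcnk10a, were measured. Both libraries were at 0 for 4 members, the sibling library alone for 7 and the mutant library alone for 5. Shares of all loci at that ratio or at 0 were not computed, so these counts stand without a background. Absolute depth is unknown. Just inside the limit for measured genes lay kcnd3 and kcnc1b, with means of 1.02 FPKM, and just outside lay kcnk2b (0.989 FPKM) and hcn3 (0.946 FPKM).

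Position relative to the mutated gene was described because the series was designed to map that gene by linkage. On chromosome 7, supt16h lies from 1689457 to 1757060, and its level was 44.4 FPKM in sibling RNA against 2.98 FPKM in mutant RNA. The same chromosome holds 5 members, of which 4 were measured. In order of distance from supt16h they are clcn3 (6.58 Mb), clcn5 (22.3 Mb), kcnc1a (32.6 Mb), kcnq1 (48.3 Mb) and cacnb2a (72.7 Mb). Of the 4 members at least 2-fold lower, kcnc1a and cacnb2a lie on the chromosome of the mutation, and scn12aa and cacnb4b do not. Of the 1061 measured loci on chromosome 7, 10.1% were at least 2-fold lower, against 8.36% of all measured loci. The part of linked sequence in these values was not tested.

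The deposited variant table held 38 variant sites in 23 members, 0.506% of its 7514 sites, and all were listed as homozygous, as were 100% of the sites in the table. Coverage was thin, with a median of 2.5 reads over these sites against 4 over all sites. Of the 38, 23 were synonymous, 9 changed an amino acid in 8 members, and 0 were frameshift, splice, start or stop changes. The share of frameshift, splice, start or stop changes over all sites was not computed, so the 0 stands without a background. Amino acid changes made up 23.7% of the member sites and 32.1% of all sites. The best covered was T721A in clcn3, at 8452130 on chromosome 7 with 19 reads and a quality score of 162. It lies 6.70 Mb from supt16h, and clcn3 also carried a synonymous site with 18 reads.

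Other amino acid changes had 2 to 4 reads each. They were H1038Y and C419Y in cacna2d3, F176Y in clcn6, P192L in cacnb2a, S1223N in cacna1aa, L164F in kcnd2, L1786F in cacna1g and S2075N in cacna1f. Positions are codon numbers of the annotated coding sequence, with the reference residue first. Which library the variants were called in is not stated.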

How the data were processed

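RNA from whole embryos was made into polyadenylated, stranded libraries and read as pairs of 50 nucleotides, per the labels' protocols. Per the submitters' processing notes, the build was Zv9 and the tools were Cuffdiff, Cufflinks 2.2.1, TopHat2 2.1.1 and CASAVA 1.8; options are not stated. The authors' deposited FPKM, p-values and q-values entered without change. Per the file headers, SnpEff 3.1k annotated the deposited variants. Each has a deposited quality score and read count (coverage).

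Computed here with Python 3.11.15 and pandas 2.3.3 were differences of log2(FPKM + 1), a scale that understates changes of low genes. Loci with status FAIL or HIDATA or a mean below 1 FPKM were left out. An implied standard error is the authors' log2 change divided by their test statistic, whose normal tail matched their p-value within 0.001 at 100% of tested loci with finite values. Locus starts were raised by 1 base, since 182 exon starts of the variant table matched them only so. Functions were tested on simulated data.

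Channel list symbols missing from the table were matched through RefSeq synonyms or without a final letter. Named genes are the 3 highest of each family, members at least 2-fold different, measured muscle and heart channels and 4 genes per partner list. Others, among them clcnk, ryr1b, stac3, the low paralogs and the neuronal calcium channel genes, were picked with their values in view. The members and lists were chosen with earlier results of these data known. The gene srl, status FAIL, and 7 rows of ryr2b, below 1 FPKM, did not enter the partner list.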

Additional observations from a re-analysis of the deposited data

How the results depend on the processing

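The skeletal muscle channel median was positive under each alternative tried, but these settings could not have turned it. All 9 measured genes lay above 0, with ratios of at least 1.42, as did clcn1a and scn4aa below the limit. The lists kept the same loci under the rule without letter case, so their medians there repeat the main values. No paired analysis was possible because each group has 1 library. Against 1 member higher and 4 lower, 0.1 FPKM added in place of 1 gave 3 and 5, 5 FPKM added gave 0 and 0, a minimum mean of 5 FPKM gave 0 and 2, loci with 1 symbol at coordinates of their own gave 0 and 4, and the rule without letter case gave 3 and 5. A size of 1.5-fold gave 8 higher and 6 lower, and 3-fold gave 0 higher and 1 lower. At a minimum mean of 5 FPKM, 0% of members and 6.31% of all loci were higher, and 11.8% and 9.88% were lower. Shares over all loci at the other settings are not given, so those counts stand without a background. A minimum mean of 5 FPKM gave medians of 0.49 over members, 0.53 over calcium channel genes and, in reverse, -0.40 over 2 Kv pore genes. It gave -0.48 over 4 neuronal channels, a value near none of them. Below 0 were kcnc1a (-1.05) and cacnb4b (-1.03), and above 0 were scn8aa (0.06) and kcnc2 (0.25). The calcium median of 0.05 turned to -0.046 with no minimum, -0.22 at loci with coordinates of their own, -0.12 without letter case and -0.01 (-0.0076) on equal total FPKM. The Kv pore median of 0.01 turned to -0.053 at loci with coordinates of their own and -0.031 on equal total FPKM, the sodium median of 0.06 to -0.0036 on equal total FPKM, and the inward rectifier median of 0.34 to -0.14 without letter case. With 0.1 FPKM added the chloride median of 0.26 was 0.40, and with 5 FPKM the skeletal muscle median of 0.57 was 0.39. The heart value rests on cacnb2a alone, at -1.10, and became -1.60 with 0.1 FPKM added, -0.48 with 5 FPKM, -1.11 by median ratio scaling, -1.15 on equal total FPKM and -0.0076 over 10 loci with no minimum. A quality score of at least 100 left 8 of 38 variant sites. The causes were not tested. The other 108 values kept their direction, but some moved by over 1.5 times. Among these, loci with status OK gave 0.27 over calcium channel genes and 0.49 over ion-activated potassium channel genes (0.24), and a minimum mean of 5 FPKM gave 0.93 for inward rectifiers, which is kcnj11 alone, and -0.01 over axonal partners (-0.15). One library per group, an unknown depth and low FPKM limit what these data can show.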
